A study of Mus musculus with 15 samples.

Results

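Pax genes encode transcription factors that bind DNA through a paired domain, and their expression was compared between mouse embryoid bodies and embryonic stem (ES) cells with and without depletion of Cbx7. A probe was a member when the array named its gene Pax1, Pax2, Pax3, Pax5, Pax6, Pax7, Pax8 or Pax9, whatever its signal. These 8 of 30905 gene names on the array had 14 probes among the 39429 probes that were not controls. A probe could be tested when the scanner software called it well above background on at least 3 arrays of a group, which held for 27248 probes in all. Of the 14 Pax probes 5 passed, 1 each for Pax1, Pax3, Pax6, Pax8 and Pax9. The other 9 probes, which include every probe of Pax2, Pax5 and Pax7, did not pass, and their levels are described without a test.

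The 15 arrays fell into 4 groups: EB9 embryoid bodies with the Cbx7 depletion named KD33 (4 arrays), EB9 controls (4), ES cells with KD33 (4) and ES controls (3, numbered 2, 3 and 4). EB9 is the name that the titles give to the embryoid bodies, aggregates in which ES cells differentiate, and no growth protocol or cell line is given in the sources used here. The control samples are labelled as untreated, while the series' design text calls those of the ES stage shCtr, the usual short form for a control short hairpin RNA. All samples are titled biological replicates. A single depletion, KD33, was used at both stages, so the p-values carry no spread between hairpins, and whether the replicates were separate cultures is not stated. Cbx7 is a chromodomain subunit of Polycomb repressive complex 1, which holds developmental genes silent in ES cells.

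Values are log2 levels of the processed signal after each array was set to its own 75th percentile, so 0 is the level of the feature at that percentile. That percentile lay between 1483 and 2531 intensity units, and no feature was saturated. Between 62.5% and 69% of features were well above background on 14 of the arrays, and 75.4% on EB9 control 2. That array was also the highest of its group on most of the dim Pax probes, so values without it are given wherever it decides a result. The arrays lay on 4 slides, and arrays that shared a slide deviated together whatever their group. Each group kept 1 position on every slide, which means that position and group cannot be told apart. Results that change when slide is included in the model are given with that value as well.

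The depleted gene was read by 2 probes. Cbx7 probe A_55_P1980401 was lower in KD33 than in control ES cells by −1.41 log2 units (SE 0.17, limma adjusted p = 1e-04) in the model with a slide term. Without that term the difference was −1.91 (SE 1.23, adjusted p = 0.256), since its readings fell far apart by slide, with slides 2 and 3 well above slides 1 and 4 whatever the group. In EB9 the slide model gave −0.27 (adjusted p = 0.221) for this probe. Probe A_55_P1980408 gave −0.16 in EB9 and −0.03 in ES cells in that model (adjusted p = 0.36 and 0.868). The arrays thus show the depletion by 1 probe of 2, in ES cells.

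The stage labels were set against marker genes. All 10 ES cell markers, Nanog and Zfp42 among them, were lower in EB9 than in ES cells, in KD33 and in controls alike. Their summed linear level, in units of the 75th percentile, was 24 to 31 in EB9 KD33 and 22.8 to 30.7 in EB9 controls, against 345 to 407 in ES KD33 and 375 to 387 in ES controls. Of 17 measured germ layer markers, 12 were higher and 4 lower in EB9 than in ES cells with KD33, and 13 were higher and 2 lower in controls. A list of 6 fibroblast and feeder markers, whose members mesenchyme also expresses, summed to 81.7 to 107 in EB9 KD33, 74.3 to 106 in EB9 controls, 3.24 to 3.65 in ES KD33 and 2.91 to 3.13 in ES controls. All 6 were well above background throughout EB9, and 3 of them throughout ES cells. The mix of cells therefore differs between the stages, and for every Pax gene below fewer cells that express it and less RNA per cell cannot be told apart in bulk RNA.

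In vertebrates the Pax family is divided into subgroups by shared domains, and each subgroup patterns its own organs. Pax1 and Pax9 act in the sclerotome, the part of the somite that forms vertebrae, and in the pharyngeal pouches. Pax2, Pax5 and Pax8 act in kidney, midbrain, ear and thyroid, and Pax5 also commits lymphoid progenitors to the B cell fate. Pax3 and Pax7 act in the dorsal neural tube, the neural crest and muscle progenitors, and Pax6 in the eye, forebrain, spinal cord and pancreatic islets. In ES cells many of these genes are classic Polycomb targets, whose start sites are often rich in CG dinucleotides.

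The stretch of 250 bases before the annotated start is printed for the 3 genes whose level differed between KD33 and control ES cells, since CG-rich starts are where Polycomb complexes are usually found. The sequences are those of RefSeq on GRCm38.p6, read along the gene's strand, and the capitals mark every CG.
Pax1: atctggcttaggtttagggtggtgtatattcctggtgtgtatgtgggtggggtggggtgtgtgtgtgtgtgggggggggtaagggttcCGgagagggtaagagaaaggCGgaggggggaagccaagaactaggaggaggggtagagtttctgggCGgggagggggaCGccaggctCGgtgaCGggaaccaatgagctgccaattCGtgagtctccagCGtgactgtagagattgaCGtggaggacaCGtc
Pax6: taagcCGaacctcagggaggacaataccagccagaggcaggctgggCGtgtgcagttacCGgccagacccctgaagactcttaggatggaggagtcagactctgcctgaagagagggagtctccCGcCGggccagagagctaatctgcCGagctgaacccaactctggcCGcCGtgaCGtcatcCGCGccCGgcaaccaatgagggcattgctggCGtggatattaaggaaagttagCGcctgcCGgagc
Pax8: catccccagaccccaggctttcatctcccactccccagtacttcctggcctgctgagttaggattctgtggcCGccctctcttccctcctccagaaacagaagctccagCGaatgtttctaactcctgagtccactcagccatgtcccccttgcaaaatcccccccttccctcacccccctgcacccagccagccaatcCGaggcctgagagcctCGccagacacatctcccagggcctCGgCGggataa
The Pax1 window lies at chr2:147364744-147364993 on the plus strand and holds 10 CG, a number that 37.8% of 32851 such windows in the same table reach or exceed. The Pax6 window, before the outermost of its annotated starts, lies at chr2:105668646-105668895 on the plus strand and holds 15 CG, which 27.3% of windows reach. The Pax8 window lies at chr2:24475600-24475849 on the minus strand and holds 6 CG, the median over all windows. CG was counted on the printed strand, and since it reads the same on the other strand the count covers both. At least 1 CG occurs in 92.1% of windows. Windows were found for 7 of the 8 genes, all but Pax3. Those not printed held 5, 20 and 25 CG for Pax2, 19 for Pax5, 13 for Pax7 and 7 for Pax9. The other Pax6 window held 15. The CG numbers were not tested against the KD33 differences. The counts describe the letters only, and no binding was measured here.

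KD33 ES cells had more Pax1 and Pax6 RNA and less Pax8 RNA than control ES cells (2.04-fold, 2.3-fold and 2.14-fold), while KD33 EB9 had less Pax1 RNA than control EB9. Of the 5 testable Pax probes, 3 passed an adjusted p of 0.05 in ES cells, 2 higher and 1 lower, where 38.1% of all probes passed, 21.9% higher and 16.2% lower. In EB9 1 of the 5 passed, lower in KD33, beside 14.1% of all probes, with 6.49% of all probes lower. Between the stages, 4 of 5 differed in controls, 1 higher in EB9 and 3 lower, beside 74.9% of all probes, 33.8% higher and 41.2% lower. In KD33 samples 4 of 5 were lower in EB9, beside 78.2% of all probes that differed and 43.9% that were lower. Pax8 and Pax9 passed the detection filter only through the ES groups, so their part in these stage counts was favoured by the filter. The difference between the KD33 effect in EB9 and that in ES cells passed for 1 of 5, for Pax1 in the negative direction, where 28.9% of all probes passed and 16.5% were negative. The Pax shares rest on 5 probes, too few to set them apart from those of all probes. The comparisons share arrays: each group enters 2 of the 4 pairwise ones, so the values of 1 gene in them are not independent.

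**Figure D1:**
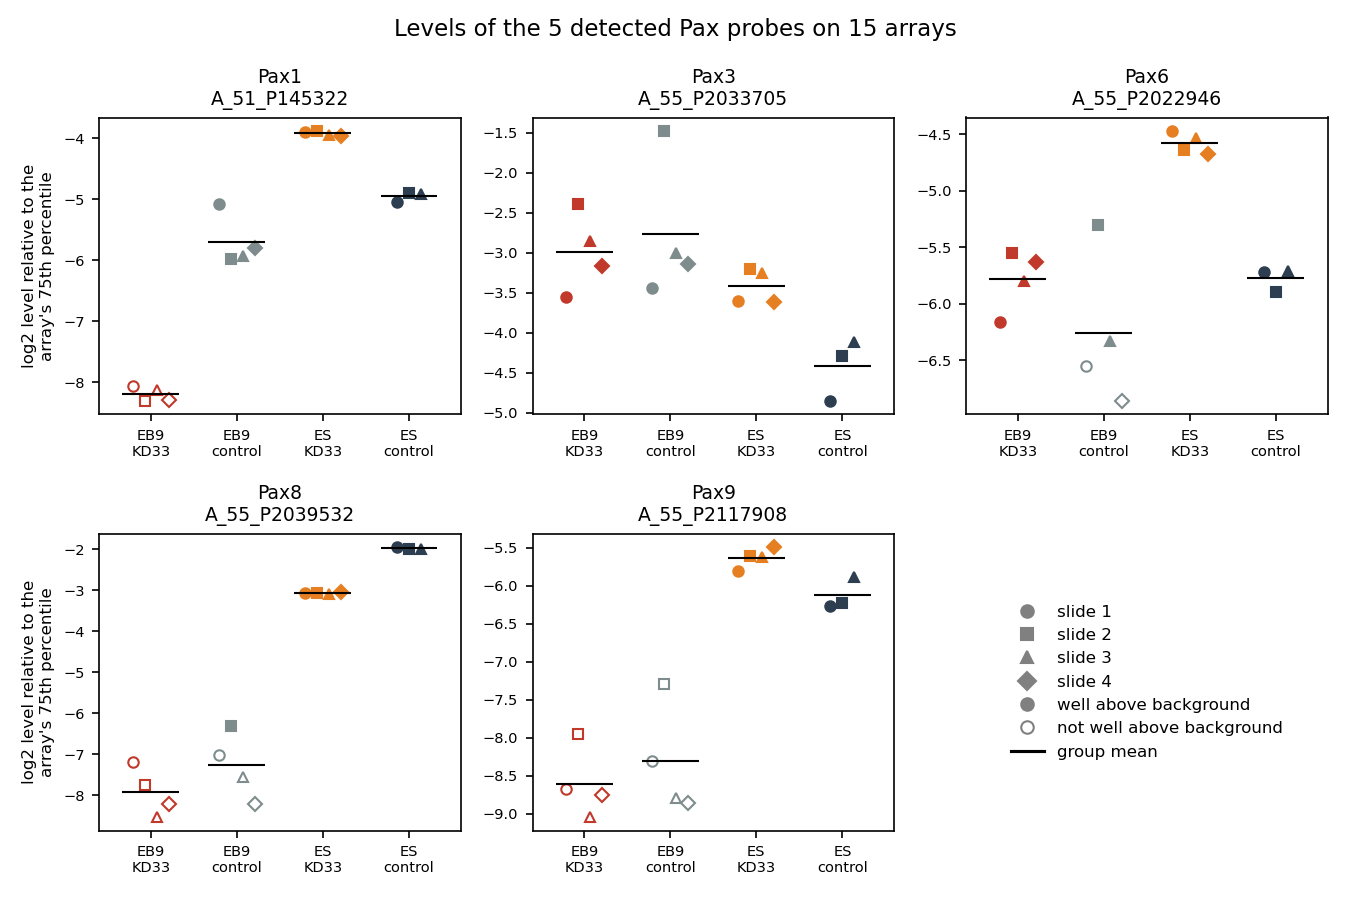
Log2 level, relative to the 75th percentile of each array, of the 5 Pax probes that passed the detection filter, with 1 point per array, groups from left to right EB9 KD33, EB9 control, ES KD33 and ES control, a bar at the group mean, shapes for slides and open points where the probe was not well above background. Pax1 was not well above background in EB9 KD33 (−8.3 to −8.06) and highest in ES KD33 (−3.96 to −3.88), and Pax8 was highest in ES controls (−1.99 to −1.95).

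Pax1, the sclerotome factor, differed with KD33 in opposite directions at the 2 stages: it was lower in EB9 and higher in ES cells. Its probe A_51_P145322 (mm9 chr2:147200673-147200732, plus strand) is printed 10 times on each array, and its spots differed by a median SD of 0.15 log2 units. In EB9 KD33 it read −8.06, −8.3, −8.12 and −8.28 in replicates 1 to 4, and in EB9 controls −5.08, −5.98, −5.93 and −5.8. In ES KD33 it read −3.89, −3.88, −3.95 and −3.96, and in ES controls 2, 3 and 4 it read −5.05, −4.89 and −4.91. No 2 of the 4 groups overlapped, and the 4 EB9 KD33 arrays were the only ones on which the probe was not well above background. Group means were −8.19 ± 0.12 (SD, n = 4) in EB9 KD33, −5.7 ± 0.42 (n = 4) in EB9 controls, −3.92 ± 0.04 (n = 4) in ES KD33 and −4.95 ± 0.09 (n = 3) in ES controls.

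In EB9 Pax1 was lower in KD33 by −2.49 log2 units (SE 0.16), with an adjusted p of 4.62e-06 by limma with Benjamini-Hochberg adjustment over all 27248 probes, and within slides 1 to 4 by −2.97, −2.33, −2.19 and −2.48. Since no EB9 KD33 array had a signal well above background, the measured part of this is at least 2.11-fold lower. Such a bound sets the brighter group's mean against the detection limit of each array in the dimmer group, its lowest signal that passed the software's background test. Some readings just above that limit still fail the test, so the bounds are approximate. On ES control 2, with its limit at −6.86, Pax2 probe A_55_P2075125 read −6.76 and failed. In ES cells Pax1 was higher in KD33 by 1.03 (SE 0.17, 2.04-fold, adjusted p = 0.000357), and within slides 1, 2 and 3 by 1.15, 1.01 and 0.96. The effect in EB9 minus that in ES cells was −3.52 (SE 0.23, adjusted p = 9.8e-07), and −2.11 (adjusted p = 2.09e-05) when values below detection were raised to the lowest detected signal. Background correction by normexp with an offset of 50, which compresses low signals by construction, kept the calls with sizes of −0.41 in EB9 and 0.67 in ES cells (adjusted p = 0.033 and 0.000597). The authors' deposited values gave −0.48 in EB9 and 0.55 in ES cells (limma adjusted p = 0.00802 and 0.00125). Both of these EB9 sizes are smaller than the bound. Of the 17 measured germ layer markers, 4 were lower and none higher in EB9 KD33, with T, the notochord and primitive streak factor, at −2.79 and Mesp1, an early mesoderm factor, at −1.67 (adjusted p = 0.000501 and 0.000621). Eomes and Sox17 were the other two, at −0.89 and −0.58. Of the 10 ES cell markers, 4 were higher and 1 lower in EB9 KD33 (median 0.22). The summed level of the germ layer list was 330 to 401 in EB9 KD33 and 303 to 415 in EB9 controls. In ES cells 4 of the 17 were higher and 4 lower with KD33, and the sum was 18.3 to 19.7 in KD33 and 15.9 to 16.4 in controls. The part of these markers in the Pax1 values was not tested.

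Pax1 was also lower in EB9 than in ES cells, in KD33 and in controls. In KD33 this difference was −4.27 (SE 0.16, adjusted p = 1.59e-11), at least 7.25-fold lower. In controls it was −0.75 (SE 0.17, adjusted p = 0.00115), 1.68-fold lower. Within slides the control difference was −0.04 on slide 1, against −1.09 and −1.02 on slides 2 and 3, as EB9 control 1 was the highest array of its group. With quantile normalisation the control difference was −0.79 with an adjusted p of 0.0529. The sizes with normexp correction were −1.41 in KD33 and −0.33 in controls, and with the authors' deposited values −1.29 and −0.26. Both of these KD33 sizes are smaller than the bound.

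Pax9, which shares the sclerotome and pharyngeal pouch with Pax1, was lower in EB9 than in ES cells and gave no call for KD33 in the reported model. Its KD33 difference in ES cells passed in several other models, though not in that with a slide term. Probe A_55_P2117908 (mm9 chr12:57811230-57811289, plus strand) read −8.67, −7.95, −9.04 and −8.75 in EB9 KD33 and −8.3, −7.29, −8.79 and −8.85 in EB9 controls. It read −5.8, −5.6, −5.62 and −5.49 in ES KD33 and −6.26, −6.23 and −5.88 in ES controls. The probe was well above background on every ES array and on no EB9 array, and every ES KD33 array lay above every ES control. It therefore passed the detection filter only through the ES groups, so its test against EB9 was partly set by that filter. The EB9 level was at least 2.22-fold lower in KD33 (−2.97, SE 0.31, limma adjusted p = 7.88e-07) and at least 1.43-fold lower in controls (−2.19, SE 0.33, adjusted p = 3.92e-05). The log2 differences were smaller than these bounds, though still called, with normexp correction (−0.73 in KD33 and −0.34 in controls) and with the authors' deposited values (−0.58 and −0.29).

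With KD33, Pax9 differed by −0.29 in EB9 (SE 0.31, 95% interval −0.95 to 0.37, adjusted p = 0.601), where both groups were below detection, and by 0.49 in ES cells (SE 0.33, −0.22 to 1.21, adjusted p = 0.273). The ES difference within slides was 0.46, 0.63 and 0.26. A fit to the ES arrays alone, in which the spread of the dim EB9 readings has no part, gave the same 0.49 with an adjusted p of 0.0142. The ES difference also passed with normexp correction (0.4, limma adjusted p = 0.021) and quantile normalisation (0.56, adjusted p = 0.0344). The same held for the authors' deposited values (0.21, adjusted p = 0.0462) and array weights (0.53, adjusted p = 0.0298). With the slide term it did not pass (0.56, adjusted p = 0.165). The second Pax9 probe, A_55_P1955756, starts 928 bases away (chr12:57812158-57812217) and was not well above background on any array. It lay between −8.43 and −7.55 in ES KD33 and between −8.79 and −8.57 in ES controls, again without overlap.

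Pax8, a thyroid and kidney regulator, was lower in KD33 than in control ES cells, and in EB9 its probe was near background. Probe A_55_P2039532 (mm9 chr2:24276147-24276206, minus strand) read −7.2, −7.76, −8.53 and −8.21 in EB9 KD33 and −7.02, −6.31, −7.55 and −8.21 in EB9 controls. It read −3.07, −3.07, −3.1 and −3.04 in ES KD33 and −1.95, −1.99 and −1.99 in ES controls. The ES arrays within a group differed by hundredths of a log2 unit and the ES groups were far apart, while the EB9 groups overlapped and EB9 control 2 was the only EB9 array well above background. Within slides 1, 2 and 3 the KD33 difference in ES cells was −1.12, −1.09 and −1.11.

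The fitted KD33 difference of Pax8 in ES cells was −1.1 (SE 0.37, 2.14-fold lower, limma adjusted p = 0.0334). That SE pools the spread of the dim EB9 arrays, and leaving out any of the 7 ES arrays lifted the adjusted p above 0.05, to at most 0.0798. Fitted on the ES arrays alone the difference was again −1.1 with an adjusted p of 1.59e-05. In EB9 the difference was −0.65 (SE 0.34, 95% interval −1.4 to 0.09, adjusted p = 0.245) between readings that were mostly below detection. The difference between the stages' effects depended on how such readings were handled: 0.45 (SE 0.51, adjusted p = 0.583) as measured, against 0.86 (adjusted p = 0.000457) with values below detection raised to the lowest detected signal and 0.85 (adjusted p = 0.000315) with normexp correction. Both of these settings shrink a difference between dim readings by construction, here to −0.23 and −0.04 in EB9. They therefore cannot decide whether the effect differed between the stages.

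Pax8 was also lower in EB9 than in ES cells. Its probe passed the detection filter only through the ES groups, so this test too was partly set by the filter. The difference was −4.85 (SE 0.34, adjusted p = 1.6e-08) in KD33, at least 13.1-fold lower. In controls the measured difference was −5.3 (SE 0.37, adjusted p = 1.66e-08), with 1 of 4 EB9 control arrays well above background, and −4.57 (adjusted p = 7.45e-14) with readings below detection raised to the lowest detected signal. With normexp correction the sizes were −2.03 in KD33 and −2.88 in controls, and that in KD33 is smaller than the bound.

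Pax6, the eye and forebrain factor, was higher in KD33 than in control ES cells. Probe A_55_P2022946 (mm9 chr2:105536454-105536513, plus strand) read −6.16, −5.55, −5.8 and −5.63 in EB9 KD33 and −6.55, −5.3, −6.33 and −6.86 in EB9 controls, where replicates 2 and 3 were well above background. It read −4.47, −4.64, −4.53 and −4.67 in ES KD33 and −5.72, −5.9 and −5.71 in ES controls. The 4 ES KD33 arrays were above all other arrays, and the other 3 groups overlapped.

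The KD33 difference of Pax6 in ES cells was 1.2 (SE 0.28, 2.3-fold, limma adjusted p = 0.00407), with 1.25, 1.27 and 1.18 within slides 1, 2 and 3. With normexp correction it was 0.63 and with the authors' deposited values 0.45 (adjusted p = 0.000265 and 0.000188). In EB9 it was 0.48 (SE 0.26, 95% interval −0.08 to 1.03, adjusted p = 0.254), and within slides 0.4, −0.25, 0.53 and 1.23. The negative value came from the slide of EB9 control 2, and without that array the difference was 0.8 and passed the test. With that array kept, the EB9 difference passed with array weights (0.75, limma adjusted p = 0.0127) and with quantile normalisation (0.54, adjusted p = 0.0232). With the slide term it did not pass (0.48, adjusted p = 0.197). The difference between the stages' effects was −0.72 (SE 0.38, adjusted p = 0.179). Between the stages Pax6 was 2.31-fold lower in EB9 in KD33 (−1.21, SE 0.26, adjusted p = 0.000697), while controls gave −0.48 (SE 0.28, adjusted p = 0.13), and passed the test without EB9 control 2 (−0.8, and −0.77 with an adjusted p of 0.00291 in the slide model). The control difference also passed with array weights (−0.63, adjusted p = 0.00693) and with quantile normalisation (−0.38, adjusted p = 0.0325). With normexp correction the stage differences were −0.55 in KD33 and −0.17 in controls, and with the authors' deposited values −0.4 and −0.15.

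The other Pax6 probe, A_52_P469306, spans chr2:105524098-105524949, 852 bases against the 60 of a probe within 1 exon. It was not well above background on any array, with readings between −8.92 and −8.03 in KD33 samples of both stages and between −8.95 and −8.11 in controls. The 2 Pax6 probes therefore did not both detect a transcript in ES cells.

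Pax3, the dorsal neural tube and muscle progenitor factor, was higher in EB9 than in ES controls, and its KD33 difference in ES cells missed the test in the reported model but passed in several others, that with a slide term among them. Probe A_55_P2033705 (mm9 chr1:78099294-78099353, minus strand) read −3.55, −2.39, −2.86 and −3.17 in EB9 KD33 and −3.44, −1.48, −3.01 and −3.14 in EB9 controls. It read −3.6, −3.21, −3.25 and −3.61 in ES KD33 and −4.85, −4.29 and −4.12 in ES controls. Every one of the 15 arrays was well above background. The 3 ES controls were the lowest arrays, and the other 3 groups overlapped.

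In controls Pax3 was 3.14-fold higher in EB9 than in ES cells (1.65, SE 0.4, limma adjusted p = 0.0021), and 1.22 without EB9 control 2. In KD33 the stage difference was 0.42 (SE 0.37, 95% interval −0.38 to 1.23, adjusted p = 0.311). That stage difference passed without EB9 control 2 in the slide model (0.42, limma adjusted p = 0.00824). With the slide term and all arrays it did not (adjusted p = 0.131). The KD33 difference in ES cells was 1 (SE 0.4, 95% interval 0.13 to 1.87, adjusted p = 0.0666), with 1.25, 1.07 and 0.87 within slides 1, 2 and 3. With the slide term it was 1.08 (SE 0.27, adjusted p = 0.00857), which brought the Pax probes called in ES cells to 4 of 5, beside 47% of all probes in that model. In EB9 it was −0.22 (SE 0.37, −1.03 to 0.58, adjusted p = 0.77) and without EB9 control 2 it was 0.21. The effect in EB9 minus that in ES cells was −1.22 (SE 0.55, adjusted p = 0.116), and −1.31 (SE 0.37, adjusted p = 0.0179) with the slide term, which called 2 of 5 Pax probes beside 40% of all.

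The 2 Pax3 probes start 182 bases apart, and they differed in detection. Probe A_51_P315734 (chr1:78099476-78099535), printed 10 times with a median spot SD of 0.34, was well above background on 1 EB9 KD33 array and 1 EB9 control array, replicate 2 in both. It lay between −7.78 and −6.18 in EB9 KD33, between −7.79 and −4.93 in EB9 controls, between −8.44 and −8.04 in ES KD33 and between −8.95 and −8.78 in ES controls. All EB9 arrays lay above all ES arrays, and all ES KD33 arrays above all ES controls, at levels not well above background.

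**Figure D2:**
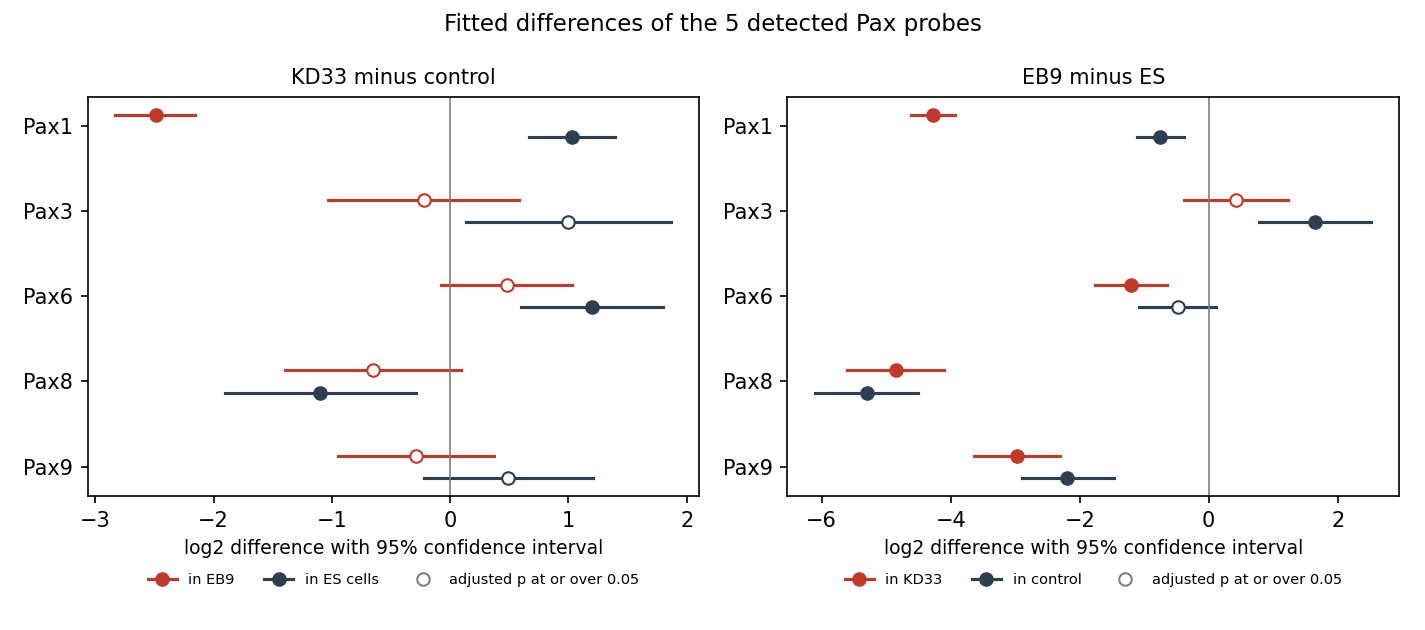
Fitted log2 differences of the 5 Pax probes with 95% confidence intervals, at left KD33 minus control in EB9 and in ES cells, at right EB9 minus ES cells in KD33 and in controls, filled where the adjusted p was under 0.05. Pax1 lies at −2.49 in EB9 and at 1.03 in ES cells for KD33, and the stage differences of Pax8, measured against EB9 readings mostly below detection, lie at −4.85 in KD33 and −5.3 in controls.

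All 5 detected Pax probes had ES KD33 and ES control arrays that did not overlap, a property of 49.2% of all probes: Pax1, Pax3, Pax6 and Pax9 lay above the controls and Pax8 below. In EB9 this held for Pax1 alone of the 5, beside 15.2% of all probes. Between EB9 and ES cells it held for 4 of 5 in controls, all but Pax6, beside 73% of all probes, and for 4 of 5 in KD33, all but Pax3, beside 74.4%. Both of these counts include Pax8 and Pax9, which passed the detection filter only through the ES groups. The plot of differences within slides shows that the 3 slides with an ES pair gave the same sign for each of the 5 genes. In EB9 the 4 slides gave the same sign for Pax1, while Pax8 gave −1.45 to 0 and signs varied for Pax3, Pax6 and Pax9.

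**Figure D3:**
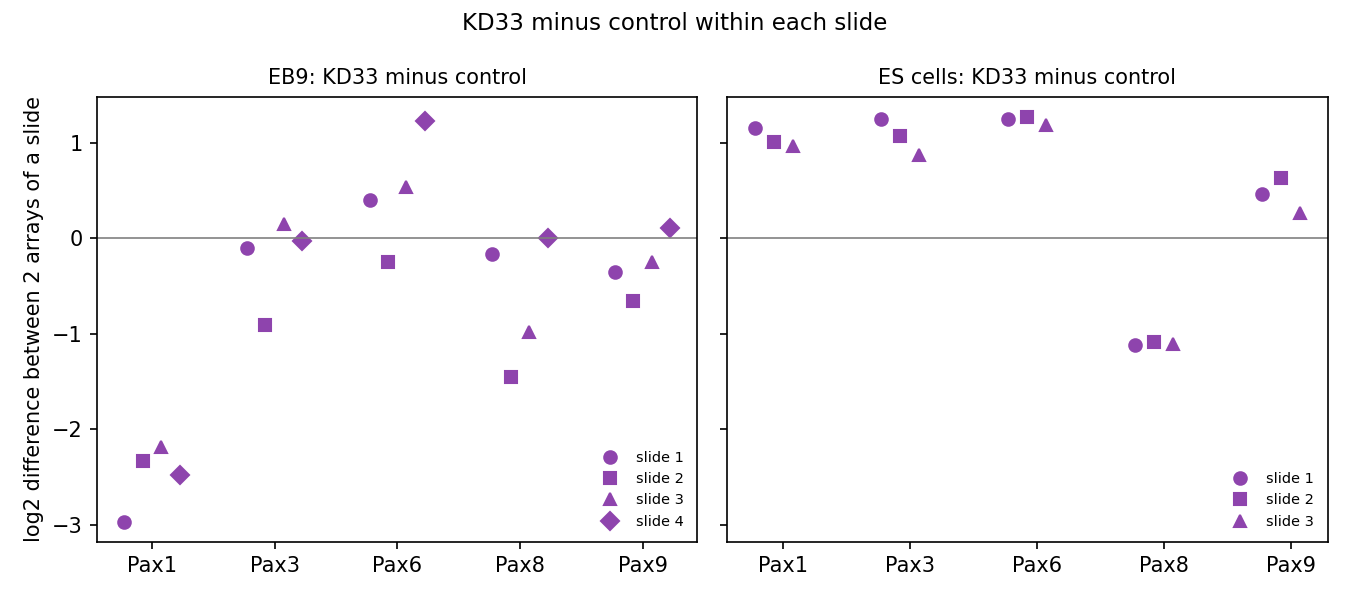
Log2 difference between the KD33 array and the control array of the same slide, for EB9 at left (4 slides) and ES cells at right (3 slides), for the 5 detected Pax probes. In EB9 the slides gave −2.97 to −2.19 for Pax1 and −0.25 to 1.23 for Pax6, and in ES cells they gave 0.96 to 1.15 for Pax1 and −1.12 to −1.09 for Pax8.

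The remaining genes gave little signal. Pax2, the kidney and midbrain factor, had 3 probes, A_55_P2148518 (mm9 chr19:44835420-44835479), A_55_P2075125 (chr19:44871124-44871183) and A_55_P2075127 (chr19:44909895-44909954), well above background on 0, 4 and 7 of 15 arrays. The last of these lay between −7.04 and −6.42 in EB9 KD33, between −7.77 and −4.77 in EB9 controls, between −7.01 and −6.26 in ES KD33 and between −7.02 and −6.3 in ES controls. The groups overlapped on all 3 probes, for every pair of groups.

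Pax5, the B cell commitment factor, had 2 probes. A_51_P122855, which spans chr4:44550354-44582908 and thus crosses an exon junction, read −5.21 and was well above background on EB9 control 2, while the other 3 EB9 controls lay between −8.69 and −8.16. The other groups lay between −8.57 and −8.34 in EB9 KD33, between −8.75 and −8.26 in ES KD33 and between −8.79 and −8.61 in ES controls. A_55_P2126394 (chr4:44658421-44658480) was above background on no array, and its highest reading, −6.66, was again on EB9 control 2.

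Pax7, the satellite cell and neural crest factor, had 1 probe, A_51_P295131 (chr4:139294364-139294423). It was well above background on EB9 control 2 (−6.06) and ES control 4 (−6.56). EB9 KD33 lay between −8.97 and −8.73, below ES KD33 (−8.63 to −6.83) and ES controls (−7.43 to −6.56) without overlap. These ES and EB9 levels are almost all below detection, so their distance was not tested.

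**Figure D4:**
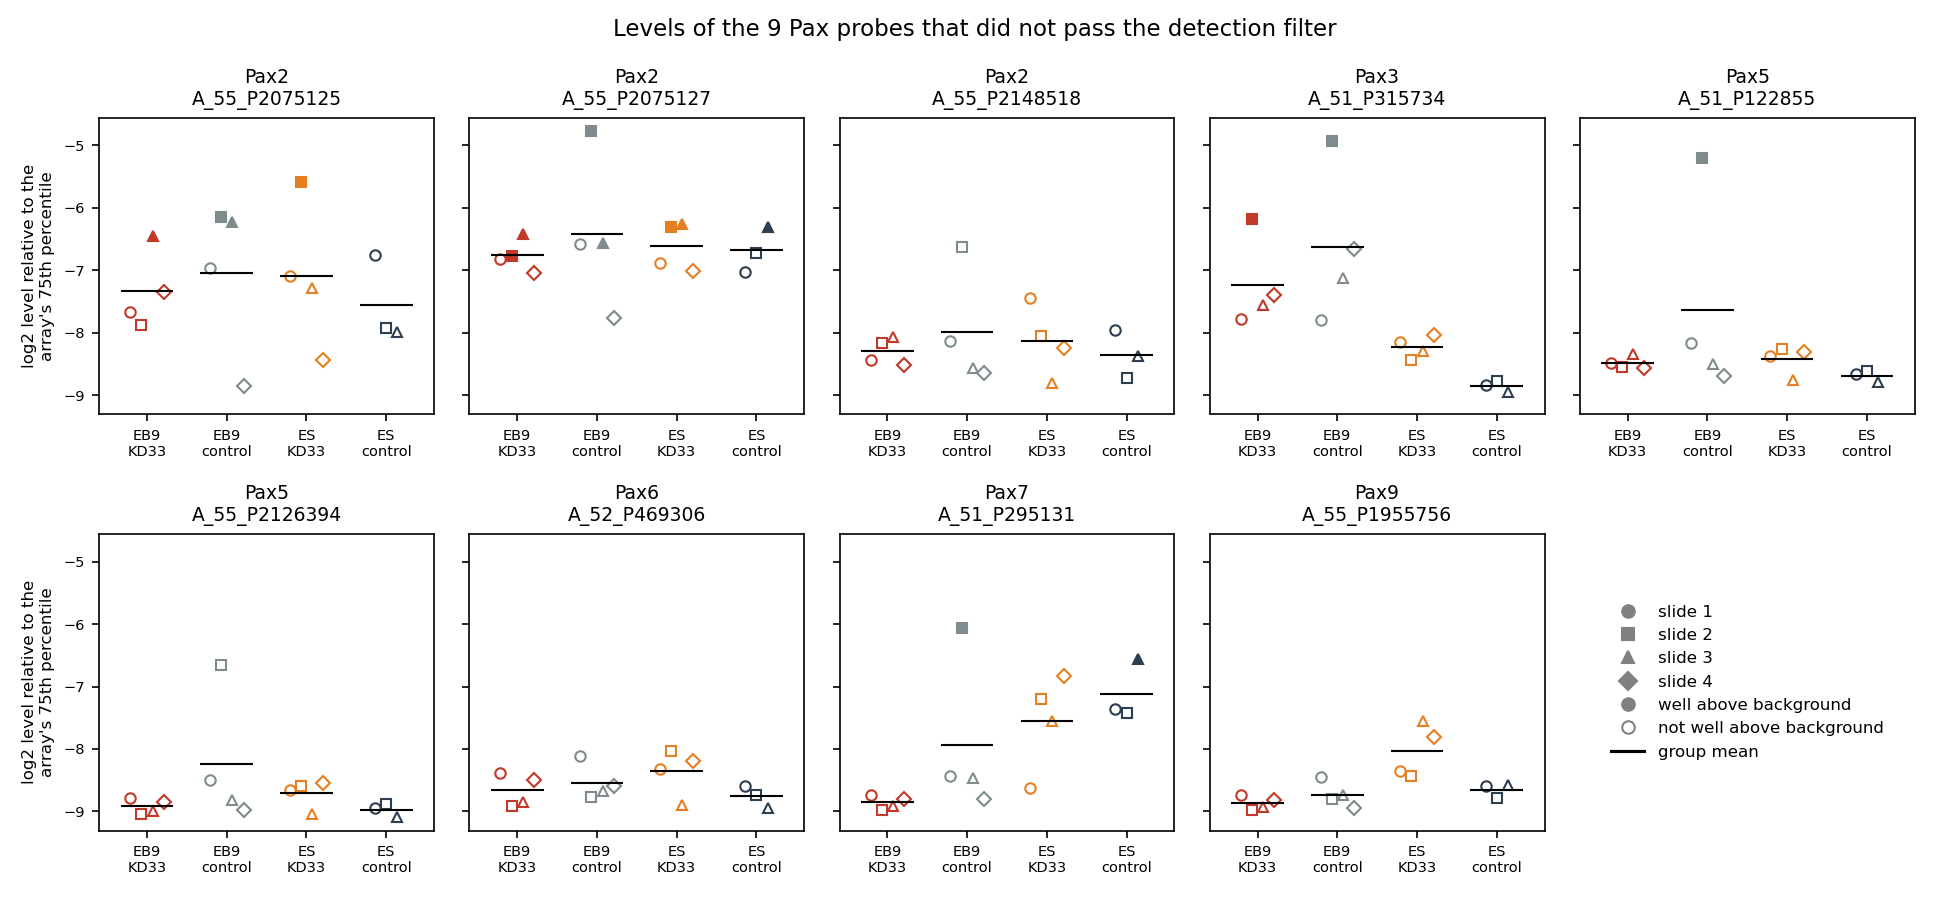
Log2 level, relative to the 75th percentile of each array, of the 9 Pax probes that did not pass the detection filter, with 1 point per array, groups from left to right EB9 KD33, EB9 control, ES KD33 and ES control, a bar at the group mean and open points where the probe was not well above background. EB9 control 2 is the highest array of its group for Pax5 (−5.21) and Pax7 (−6.06), and most points are open.

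Genes that act with or downstream of Pax factors were described through lists, each gene by its brightest tested probe. The counts of genes that passed stand beside 38.1% of all probes in ES cells, 21.9% higher and 16.2% lower in KD33, and beside 14.1% in EB9, 6.49% lower. No list was tested against these shares. Dach, Eya and sine oculis homeobox proteins form the regulatory network that Pax genes work with in eye, ear, kidney and muscle. Of 10 measured genes of that network, 4 were higher and 1 lower in ES KD33, with a median difference of 0.25 beside 0.05 over all probes. In EB9 KD33 1 was higher and 1 lower (median −0.01, as over all probes). Dach1, a co-repressor of the network, was higher in ES KD33 by 1.57 (SE 0.14, limma adjusted p = 3.26e-06). Six2, a kidney progenitor factor, and Dach2 were both higher in ES KD33 by 1.02 (adjusted p = 7.56e-05 and 0.000688), and Six2 was lower in EB9 KD33 by −0.55 (adjusted p = 0.0133). Six5, a homeobox factor expressed in lens and muscle, was lower in ES KD33 by −1.07 (adjusted p = 4.02e-05), and Eya1, a phosphatase and co-activator of such homeobox proteins, gave 0.06 (adjusted p = 0.746).

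Of 19 measured genes of neural tube, eye and neural crest, where Pax3, Pax6 and Pax7 act, 7 were higher and 2 lower in ES KD33 (median 0.27), beside the 38.1% of all probes called there. In EB9 KD33 1 was higher and 4 were lower (median −0.03). Zic1, a zinc finger factor of dorsal neural tissue, was higher in ES KD33 by 1.68 (SE 0.22, adjusted p = 6.03e-05 by limma). Olig2, a basic helix-loop-helix factor of motor neuron and oligodendrocyte progenitors, was at least 2.93-fold higher there (adjusted p = 0.00412). Nkx6-1, a ventral spinal cord factor, was higher by 1.02 and Dbx2, an interneuron factor, lower by −0.97 in ES KD33 (adjusted p = 6.65e-05 and 2.12e-06). The 4 lower genes in EB9 KD33 were Msx2 (−0.88), Tfap2a (−0.87), Msx1 (−0.56) and Mitf (−0.16), and Zic1 was the higher one (0.7). Nkx2-2, a homeobox factor of the ventral spinal cord, gave −0.38 in EB9 and 0.04 in ES cells (adjusted p = 0.226 and 0.919).

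Of 13 measured genes of somite and muscle, 2 were higher and 3 lower in ES KD33 (median 0) and 1 was higher in EB9 KD33 (median −0.08). Foxc1, a forkhead factor of paraxial mesoderm, was higher in ES KD33 by 1.06 (SE 0.14, limma adjusted p = 6.3e-05). Its relative Foxc2 was higher at both stages, by 0.57 in EB9 and 0.28 in ES cells (adjusted p = 0.000266 and 0.00798). Meox1, a homeobox factor of somites, was lower in ES KD33 by −0.46 (adjusted p = 0.0326), as were Tbx6, the presomitic mesoderm factor (−0.51), and Myog, the muscle factor myogenin (−0.85). Myf5, a muscle determination factor, had no probe that passed the filter. Of 15 measured genes of kidney, ear, thyroid and midbrain, 5 were higher and 4 lower in ES KD33 (median 0.06), and 2 higher and 4 lower in EB9 KD33 (median −0.13). Gdnf, a ligand of the kidney bud receptor Ret, was higher in ES KD33 by 1.17 (adjusted p = 1.47e-05), and Gata3, which acts with Pax2 and Pax8 in the nephric duct, was lower by −0.37 (adjusted p = 0.0408).

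Genes of that list also differed by more than 2-fold in EB9. Fgf8, the signal of the midbrain organiser, was lower in EB9 KD33 by −1.35 (SE 0.23, limma adjusted p = 0.00238). Wt1, a zinc finger factor of kidney progenitors, was higher there by 1.06 (SE 0.25, adjusted p = 0.0144). In ES cells, where Pax8 was lower in KD33, Slc5a5, the iodide transporter and a thyroid target of Pax8, was higher by 1.03 (adjusted p = 0.000725). The effect in EB9 minus that in ES cells was −2.06 for Fgf8 (adjusted p = 0.00058). It was −1.73 for Dach1, −1.72 for Olig2, −1.57 for Six2 and −1.37 for Msx1 (adjusted p = 3.83e-05, 0.0252, 6.34e-05 and 6.44e-05).

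B cell genes, the field of Pax5, were measured for 4 of 8: Vpreb1 (−0.88), Blnk (−0.61) and Cd79b (−0.54) were lower in ES KD33, 3 in all, and none passed in EB9 KD33. Of 7 genes for co-factors of Pax proteins, 4 were lower in ES KD33, beside 16.2% of all probes: the Groucho co-repressors Tle4 (−0.73, limma adjusted p = 1.27e-05) and Tle1 (−0.54), Pagr1a (−0.37) and Daxx (−0.31). None of the 7 passed in EB9 KD33. Between the stages the B cell list had lower members and no higher ones in EB9, 2 of 4 in KD33 and 3 of 4 in controls (median −1.7 and −2.28). Of all probes 43.9% were lower in EB9 in KD33 and 41.2% in controls, and 4 genes are too few to set the list apart. The other lists held members that were higher and members that were lower, and the median over all probes was −0.17 in KD33 and −0.13 in controls. In KD33 the widest differences of EB9 from ES cells included those of Snai2, which drives delamination of neural crest, Msx1, a neural crest homeobox factor, and Six5. In log2 units these were 4.31, 4.05 and 4.02. Also among the widest were 2 given as fold bounds. Foxd3, a neural crest and ES cell factor, was at least 9.9-fold lower, and Osr1, a kidney progenitor factor, at least 4.1-fold higher. Each of these genes had a limma adjusted p of at most 3.62e-08. In controls the widest differences, in log2 units, included those of Msx1 (5.42), Foxd3 (−4.54), Zic1 (4.51), Dach1 (4.48) and Snai2 (4.33). Each had an adjusted p of at most 5.87e-08.

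The probes with the profile most like each detected Pax probe were found by the root mean square difference of mean-centred log2 levels over the 15 arrays. For Pax1 they were those of Gsc (0.69), Trf (0.72) and Aldh3b2 (0.72), the loosest matches of the 5. Gsc, for example, averaged −5.09 in EB9 KD33, −4.01 in EB9 controls, −2.04 in ES KD33 and −2.38 in ES controls. For Pax3 they were Efcab7 (0.34), Slc7a6 (0.35) and Hoxd1 (0.36). For Pax6 they were Ptchd4 (0.25), Cpeb1 (0.26) and 4933417D19Rik (0.28). For Pax8 they were Chst13 (0.32), Ccdc63 (0.32) and Atp13a4 (0.37), and for Pax9 Sez6 (0.22), Dixdc1 (0.26) and Slc44a3 (0.27). Where a gene is near background on some arrays, part of a match is shared noise of those arrays, which was not tested.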

How the data were processed

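Cy3-labelled RNA of 15 samples, 500 ng each per the labels' protocols, was hybridised to 1-colour Agilent arrays. The deposited scanner files hold intensity values, corrected for background by Agilent Feature Extraction 10.7.3.1 per the file headers, with probe coordinates on mm9. The authors' deposited table has log2 values, and normexp correction (offset 50) with quantile normalisation gave the same numbers within 0.000154; no other step is given in the sources used here. Each array had 44397 features, 43020 of them not controls. Here the processed signal was log2-transformed, the array's 75th percentile was subtracted, 109 to 179 features per array marked by the software as non-uniform or outlying were left out, and spots of a probe were averaged.

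Probes well above background on at least 3 arrays of a group were fitted with limma 3.58.1 in R 4.3.3 (files read with data.table, version 1.17.8), with a mean for each of the 4 groups (15 arrays, 11 residual degrees of freedom plus 1.66 from the prior) and two-sided tests. P-values were adjusted by Benjamini-Hochberg over the 27248 probes, at a threshold of 0.05. SEs of differences are moderated ones. The fit alone was tested on simulated levels, for KD33 against control in ES cells. Those levels had no slide effects, and normalisation and the filter were not part of that test.

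Slides were read from the headers. Deviations from group means correlated at a median of 0.41 between arrays of different groups on 1 slide (21 pairs, 0.21 to 0.6, across probes) and −0.29 on different slides (63 pairs, −0.56 to 0.45). ES controls 2, 3 and 4 lay on slides 1, 2 and 3, and with arrays of the same replicate number they correlated at −0.31 (9 pairs), so the slide and not the number pairs the arrays.

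Members, gene lists and alternatives were chosen with earlier results of these data known. All Pax probes are named. Of the lists, the genes named per comparison are up to 6 with the largest change of at least 2-fold among those that passed, plus Eya1, Myf5, Meox1, Nkx2-2 and Gata3. Some genes that this rule names are not reported here. Other genes named as examples were chosen after their values were seen. Probes were named through RefSeq accession (26424), symbol (3983) or older symbol (826), and else by the file (8196). Alternatives covered background correction, normalisation, the filter, the slide, the replicate number, array weights, the groups fitted and leaving out arrays.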

Additional observations from a re-analysis of the deposited data

Results flagged for a closer look

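The KD33 effect on Pax1 differed between the stages by −3.52 log2 units (SE 0.23, limma adjusted p = 9.8e-07), being negative in EB9 on 4 of 4 slides and positive in ES cells on 3 of 3. The EB9 KD33 readings were not well above background. EB9 control 2 stood far from the other EB9 controls on the Pax5 probe A_51_P122855 (−5.21) and on the Pax7 probe A_51_P295131 (−6.06), by the gap to its nearest neighbour against the range of the group. Of 42 groups of 4 arrays examined on Pax probes, 2 had such an array, and chance gives about 1 in 20. That array also had the largest share of features well above background, 75.4%. The part this has in its Pax5 and Pax7 readings was not tested.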

How the results depend on the processing

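Of the 5 Pax probes tested in ES cells, 3 passed as reported. All 5 passed with normexp correction, quantile normalisation, the authors' deposited values, array weights or only the 2 groups fitted. In those settings 10343, 9739, 9189, 15281 and 11896 of all 27248 probes passed, against 10373 as reported. Leaving out 1 array gave 2 to 4 Pax probes. In EB9 1 passed as reported, and 2 with quantile normalisation, array weights or, added after seeing the data, without EB9 control 2 in the slide model; leaving out 1 array gave 1 to 2. For the difference of effects between stages 1 passed, against 2 with normexp, quantile, the authors' values, array weights, the slide term, or without EB9 control 2 in the slide model, and 3 with values below detection raised, also added later. Between EB9 and ES cells 4 Pax probes passed as reported in KD33 and 4 in controls. Without EB9 control 2 in the slide model 5 passed in each. In that setting 23349 of all probes passed in KD33 and 21980 in controls, against 21296 and 20422 as reported. Over all probes, 3852 passed for KD33 in EB9, against 6939 with the slide term, 6531 with it and without EB9 control 2, 7614 with array weights, 1263 with only the 2 groups fitted, and 2096 to 5448 with 1 array left out. With quantile normalisation 3711 passed there. For the difference of effects 7870 of all probes passed as reported, 6798 with normexp, 7403 with quantile and 10910 with the slide term. Pax3 in EB9 (−0.22) was 0.1 without EB9 control 2 in the slide model and −0.45 to 0.21 with 1 array left out. Pax9 in EB9 (−0.29) was 0 with normexp, 0.07 with quantile and −0.51 to 0.05 with 1 array left out. Pax8 in ES cells had an adjusted p of 0.0517 without the filter. In all, 286 of the single-gene values under the settings other than leave-one-out kept direction and side of the threshold, 29 came to pass, 2 ceased to pass and 3 turned. With the replicate number as a block, Pax3 in ES cells was 1.16 (limma adjusted p = 0.0273), and no other Pax call changed; the number is not what pairs the arrays. The median over all probes moved by over 0.1 without the filter (0.12 against −0.13 for EB9 against ES controls) and with the authors' values (−0.05 against −0.17 for EB9 against ES KD33). The signal over background limits every EB9 value of Pax1 in KD33, Pax8 and Pax9. The cause of these changes was not tested.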
